A study of Mus musculus with 48 samples.

Results

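Transcript levels of 46 genes that copy the genome and divide the cell were measured in mouse duodenum and ileum from birth to week 4. The members were a list of gene symbols, all 46 of which matched an identifier in the deposited count table of 54532 genes and all of which passed the filter on low counts. The samples were whole-thickness pieces of 2 cm of duodenum, next to the stomach, and of ileum, next to the caecum, from C57Bl/6J mice of both sexes with no treatment or engineered allele in any group. The 8 ages were day 0, 2, 4, 6 and 8 plus week 2, 3 and 4, each with 3 numbered samples per region. The labels call the housing germ-free, but in the same text speak of limiting differences in microbial exposure, so whether the mice were free of microbes is not clear. The pups were kept by the dam to day 21 and given chow afterwards. The labels do not say whether the numbered samples of a group came from separate animals or how many animals went into a sample. The p-values therefore measure the spread between samples, modelled over all 16 groups together and not from the compared groups alone. The labels say that a litter usually supplied several ages, but not which samples came from which litter. The samples labelled day 6 number 3 were left out in both regions, because Pdx1, a gene of the proximal gut, was at 0.130 CPM in the one labelled duodenum and 14.1 CPM in the one labelled ileum. This left 46 samples, 23 per region, with 2 per region at day 6, and all results leave both samples out unless said otherwise.

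A dividing cell first loads the MCM helicase onto replication origins, which is licensing, then fires the origins and copies its DNA in S phase, and then sorts the chromosomes in mitosis. Genes for licensing and DNA synthesis are switched on by E2F factors as cells pass from G1 into S phase, and genes for mitosis are switched on later, in G2 and M phase, through promoters that hold CCAAT boxes and CHR elements. In the small intestine the dividing cells lie between the villi at birth and later in the crypts, and the villus epithelium they feed does not divide. The members were therefore read as 21 G1/S genes and 25 G2/M genes, in 7 roles. A CPM is a count per megacount of library after TMM scaling, and CPM values of different genes are not compared with each other here because they are not corrected for transcript length.

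Total estimated counts ran from 23173093 to 65042327 per duodenum sample and from 16824021 to 42029626 per ileum sample. A few libraries stood apart from their groups. The duodenum samples of day 0 numbered 2 and 3 held reads of both Xist, which marks females, and the Y-linked Ddx3y. Over 100 Ddx3y counts were found in 3 of 3 duodenum and 1 of 3 ileum samples of day 0, and in 2, 1, 1 and 2 samples per region at day 2, day 4, week 2 and week 3, but in none of day 6, day 8 or week 4. Comparisons of day 8 or week 4 with other ages therefore set groups without such samples against groups that hold them, and a fit with a term for Ddx3y reads was added after seeing the data. By Pdx1, the gene used to leave out the day 6 samples, duodenum week 4 number 2 was at 1.40 CPM against 17.0 and 13.8 in its group, below ileum week 4 numbers 1 and 3 (1.72 and 2.56). Duodenum week 2 number 2 and day 0 number 1 were at 3.99 and 2.44 CPM, low for their groups, and ileum day 0 number 2 was high at 6.63 CPM. Fabp6, a gene of the distal gut, was at 32.3 CPM in ileum week 4 number 1 against 1170 and 1723 in its group. These samples were kept, and the values without them are given where they move a count. At day 4, duodenum number 3 and ileum number 2 were low in long transcripts beside their own groups: the median log2 level of genes above the upper quartile of transcript length minus that of genes below the lower quartile, each relative to its mean over all samples, was -0.93 and -0.47. It lay between -0.51 and 0.29 in the other 44 samples. Epithelial marker genes (Epcam, Cdh1, Krt8, Krt18, Krt19, Vil1 and Cldn7) summed to 3293 to 10729 CPM in every library. The 5 smooth muscle markers, among them Acta2 and Myh11, summed to only 4.24 to 158 CPM, although the tissue is labelled whole thickness.

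Promoters are shown because the list holds both expression programmes, whose genes differ in the letters around their start. RefSeq windows on build GRCm38.p6 of 300 bases, from 250 before to 50 after a gene's start, matched 37 of the 46 members in 40 windows. The CHR element was searched as TTTGAA or TTCGAA, the CCAAT box as CCAAT and the E2F site as TTTGGCGC, TTTCCCGC, TTTCGCGC or TTTGCCGC, each on both strands and with matches allowed to overlap. A CHR match was present in 17 of 21 G2/M windows (81.0%), in 3 of 19 G1/S windows (15.8%) and in 19.2% of all 32851 windows. CCAAT was present in 90.5% of G2/M windows, 68.4% of G1/S windows and 37.4% of all windows. An E2F match was present in 7 of 19 G1/S windows (36.8%), in 1 of 21 G2/M windows (4.76%) and in 2.27% of all windows. A match is a run of letters and not a shown binding site. For 3 genes of each kind the 250 bases before the start are printed 5′ to 3′ on the gene's strand, with matches in capitals. In the G1/S genes Cdc6 (chr11:98907901-98908150, plus strand), Mcm5 (chr8:75109259-75109508, plus strand) and Mcm6 (chr1:128359706-128359955, minus strand) the capitals mark E2F and CCAAT matches, and Mcm5 and Mcm6 each hold a pair of overlapping E2F matches on opposite strands.
Cdc6: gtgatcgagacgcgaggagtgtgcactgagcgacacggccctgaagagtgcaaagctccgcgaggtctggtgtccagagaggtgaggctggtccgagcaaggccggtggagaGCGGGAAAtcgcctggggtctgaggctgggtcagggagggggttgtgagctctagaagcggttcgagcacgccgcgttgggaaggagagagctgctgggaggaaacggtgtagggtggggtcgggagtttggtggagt
Mcm5: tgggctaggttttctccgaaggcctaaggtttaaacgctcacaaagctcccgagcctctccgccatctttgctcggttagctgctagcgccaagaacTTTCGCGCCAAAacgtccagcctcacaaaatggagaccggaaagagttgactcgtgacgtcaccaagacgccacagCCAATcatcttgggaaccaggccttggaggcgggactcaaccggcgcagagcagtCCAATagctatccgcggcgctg
Mcm6: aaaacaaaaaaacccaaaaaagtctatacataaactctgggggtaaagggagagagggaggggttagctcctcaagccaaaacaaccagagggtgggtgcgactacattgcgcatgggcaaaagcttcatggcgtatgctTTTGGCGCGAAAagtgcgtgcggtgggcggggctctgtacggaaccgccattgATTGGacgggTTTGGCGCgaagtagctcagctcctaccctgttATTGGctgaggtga
In the G2/M genes Kif11 (chr19:37376132-37376381, plus strand), Cdc20 (chr4:118437344-118437593, minus strand) and Cdk1 (chr10:69352913-69353162, minus strand) the capitals mark CHR and CCAAT matches, and Cdk1 also holds the G2/M windows' lone E2F match.
Kif11: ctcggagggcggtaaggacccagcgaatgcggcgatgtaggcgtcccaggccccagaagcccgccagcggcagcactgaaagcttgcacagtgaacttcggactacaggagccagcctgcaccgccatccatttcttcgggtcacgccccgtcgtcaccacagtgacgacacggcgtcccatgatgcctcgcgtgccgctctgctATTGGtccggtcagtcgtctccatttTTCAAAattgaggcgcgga
Cdc20: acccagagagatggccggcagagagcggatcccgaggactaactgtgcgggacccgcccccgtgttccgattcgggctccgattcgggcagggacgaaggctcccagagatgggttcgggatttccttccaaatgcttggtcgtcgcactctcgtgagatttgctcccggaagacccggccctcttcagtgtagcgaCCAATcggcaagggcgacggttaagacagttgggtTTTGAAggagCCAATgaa
Cdk1: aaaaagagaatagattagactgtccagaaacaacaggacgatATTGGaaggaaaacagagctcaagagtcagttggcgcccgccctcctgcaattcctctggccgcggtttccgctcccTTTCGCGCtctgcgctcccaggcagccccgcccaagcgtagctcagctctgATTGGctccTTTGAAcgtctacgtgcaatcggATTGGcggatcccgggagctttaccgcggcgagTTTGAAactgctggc
The printed genes were picked because their matches lie before the start, so their positions do not describe the other members. In all 3 of these G2/M genes a CHR match lies in the last 30 bases before the start, with a CCAAT match upstream of it. In other G2/M windows, such as those of Aurka, Bub1 and Plk1, the only CHR match lies after the start.

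The members rose together after birth, were highest between day 4 and day 8 in nearly all cases and in the duodenum fell by week 2, with the fall called for fewer members in the ileum. At week 4 a part of them stood above their birth level. The age effect over all 8 ages was called for 46 of 46 members in each region by edgeR's quasi-likelihood test (adjusted p under 0.05), where the calls over all 21986 tested genes came to 67.4% for the duodenum and 58.7% for the ileum. Summed over the members, the duodenum held 1077 ± 102 CPM when the pups were born and 5256 ± 187 CPM on day 8 (SD, n = 3 each). It then held 2516 ± 622 CPM in week 2, 2842 ± 283 CPM in week 3 and 1945 ± 444 CPM in week 4. The ileum values at these 5 ages were 819 ± 92.7, 2217 ± 224, 1231 ± 10.3, 1776 ± 446 and 1234 ± 181 CPM. Between birth and day 8 the means at days 2, 4 and 6 were 1932, 4333 and 4292 CPM in the duodenum and 1410.3, 1986 and 1267 CPM in the ileum. The ileum means thus had highs at day 4, day 8 and week 3, and the duodenum mean was also higher at week 3 than at week 2 and week 4. The group mean was highest at day 8 in 36 duodenum members, at day 4 in 9 and at day 6 in 1. In the ileum the highest mean was at day 8 in 22 members, at day 4 in 20, at week 3 in 3 and at day 6 in 1. Day 0 was the lowest age for 44 duodenum and 41 ileum members, and week 4 for the others. The highest group mean was a median of 4.92 times the day 0 mean in the duodenum, from 1.98 times for Mcm2 to 9.91 times for Mcm5. The ileum median was 2.69 times, with a range from 1.59 times for Cdt1 to 4.50 times for Mcm3.

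**Figure D1:**
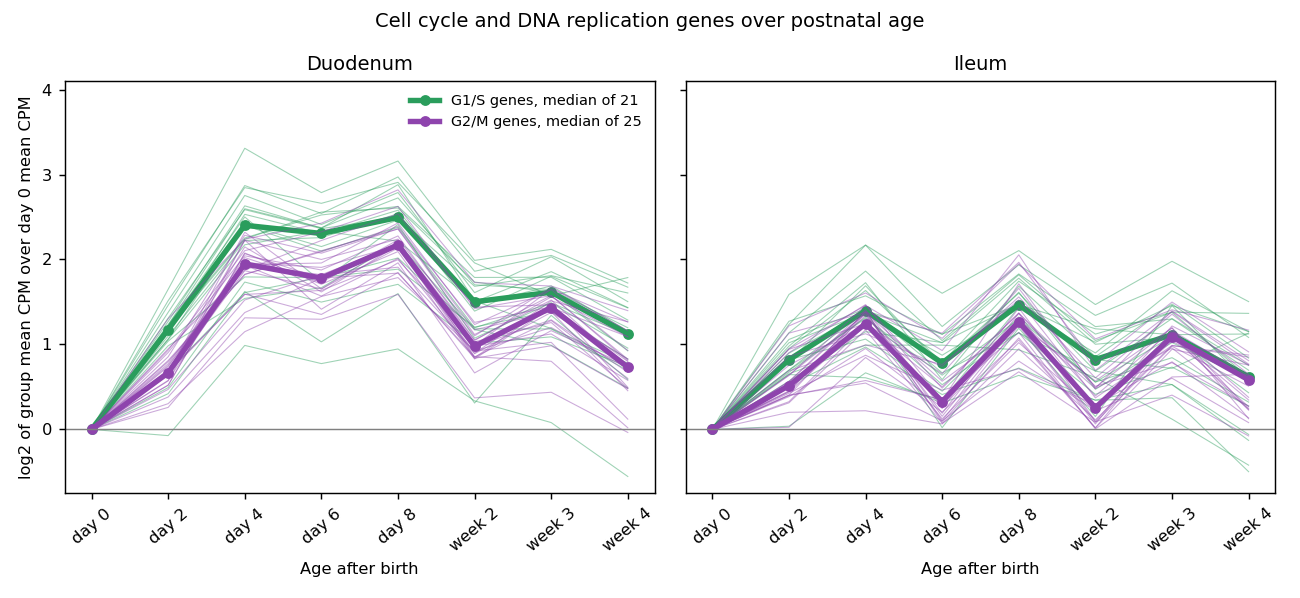
Each thin line is 1 member's group mean CPM over its day 0 mean, on a log2 scale, against age (evenly spaced) in the duodenum and the ileum. Thick lines are the medians of the 21 G1/S and 25 G2/M genes. Both sets are highest at day 4 to day 8, and the ileum falls back between its highs at day 4, day 8 and week 3.

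From day 0 to day 8 all 46 members rose in the duodenum, against 22% of all tested genes, with a median fold change of 4.70. In the ileum 44 of 46 rose, against 8.56% of all tested genes, with a median fold change of 2.58, and Cdt1 and Plk1 did not pass the test. Over all tested genes the median log2 fold change was -0.06 (duodenum) and 0.01 (ileum). Every day 8 sample lay above every day 0 sample for 46 of 46 members in both regions, against 30.9% (duodenum) and 17.7% (ileum) of all genes. In bulk tissue a larger share of dividing cells and more of the RNA per cell cannot be told apart. Marker genes of other cells moved as well: the 5 crypt stem cell markers (Lgr5, Olfm4, Ascl2, Smoc2 and Axin2) all rose, from a sum of 282 to 426 CPM at day 0 to 3876 to 4683 CPM at day 8 in the duodenum, and from 140.2 to 188 up to 1521 to 1777 CPM in the ileum. The 5 endothelial markers all fell in the duodenum, from a sum of 99.0 to 195 CPM to 7.69 to 12.6 CPM, and 3 of 5 fell in the ileum. The part of these cells in the members' change was not tested.

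Licensing and initiation genes held both the steepest and the flattest rises. Mcm5, a subunit of the MCM helicase, stood at 13.9, 9.79 and 13.4 CPM in the duodenum samples of day 0 and at 118, 112 and 102 CPM at day 8. This was the largest rise of any member (log2 fold change 3.15, standard error 0.39, edgeR adjusted p = 6.39e-08). In the ileum Mcm5 went from 14.4, 8.64 and 7.15 to 39.7, 39.8 and 36.0 CPM (log2 fold change 1.94, standard error 0.38, edgeR adjusted p = 0.000315). The groups were far apart in both regions, and the day 8 duodenum samples lay above all ileum samples of day 8. Mcm2, a subunit of the same complex, had duodenum values of 61.1, 47.4 and 49.3 CPM at day 0 and 105, 102 and 96.5 CPM at day 8, the smallest rise of any member there (log2 fold change 0.95, standard error 0.24, edgeR adjusted p = 0.00136). Its adjusted p was 0.191 without the day 0 samples numbered 2 and 3. In the ileum Mcm2 moved from 27.3, 26.5 and 22.6 to 40.8, 45.6 and 39.4 CPM (log2 fold change 0.72, standard error 0.24, edgeR adjusted p = 0.0288), and this call was lost when any of 5 of the 6 samples was left out, all but ileum day 8 number 3 (adjusted p up to 0.115 over the alternatives). At birth Mcm2 thus stood nearer to its own day 8 level than Mcm3, of the same complex, which went from 12.3 ± 2.72 CPM at day 0 to 96.5 ± 5.95 CPM at day 8 in the duodenum (SD, n = 3 each). Its ileum means were 8.38 ± 2.54 and 36.0 ± 4.46 CPM.

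Cdc6, which loads the helicase, had duodenum values of 3.80, 2.55 and 2.57 CPM at day 0 and 22.9, 23.7 and 20.3 CPM at day 8 (log2 fold change 2.90, standard error 0.33, edgeR adjusted p = 8.35e-09). The ileum samples rose from 4.29, 2.76 and 0.974 to 10.1, 8.85 and 7.95 CPM (log2 fold change 1.77, standard error 0.33, edgeR adjusted p = 0.000149). Cdt1, its partner in loading, rose less: from 12.1, 11.1 and 12.3 to 42.3, 36.6 and 36.9 CPM in the duodenum (log2 fold change 1.71, standard error 0.24, edgeR adjusted p = 5.12e-07). In the ileum Cdt1 was at 12.7, 11.1 and 9.26 CPM at day 0 and 14.7, 17.7 and 18.9 CPM at day 8, groups that did not overlap, with an edgeR adjusted p of 0.058. Cdc45 and Gins2, which turn the loaded ring into a working helicase, rose in both regions (log2 fold changes 2.77 and 2.49 in the duodenum, 1.69 and 1.47 in the ileum). Mcm4, Mcm6 and Mcm7, the other helicase subunits listed, had log2 fold changes of 2.603, 2.21 and 2.37 in the duodenum and 1.83, 1.14 and 1.298 in the ileum. Mcm2 had the smallest change of the 6 subunits in both regions. Of the 10 genes of this role, 10 rose in the duodenum and 9 did so in the ileum, with median log2 fold changes of 2.55 and 1.58.

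All 8 genes of DNA synthesis and nucleotide supply rose in both regions, with median log2 fold changes of 2.56 (duodenum) and 1.54 (ileum). Tyms, which makes thymidylate, had duodenum values of 17.5, 18.0 and 26.0 CPM at day 0 and 154, 162 and 137 CPM at day 8 (log2 fold change 2.88, standard error 0.28, edgeR adjusted p = 2.41e-10). Its ileum values were 17.6, 17.1 and 14.7 at day 0 and 58.7, 52.2 and 40.4 CPM at day 8 (log2 fold change 1.61, standard error 0.27, edgeR adjusted p = 2.56e-05). Pcna, the sliding clamp of the DNA polymerases, was tight within groups: 62.3, 64.2 and 66.0 CPM at day 0 and 242, 235 and 234 CPM at day 8 in the duodenum (log2 fold change 1.89, standard error 0.22, edgeR adjusted p = 8.99e-09). Its ileum samples read 52.0, 47.0 and 35.6 CPM at day 0 and 141, 103 and 92.4 CPM at day 8 (log2 fold change 1.32, standard error 0.21, edgeR adjusted p = 1.93e-05). Rrm2, the small subunit of ribonucleotide reductase, had the widest spread of the members at birth relative to its mean, 11.6, 20.8 and 27.2 CPM in the duodenum, and reached 66.0, 59.8 and 54.9 CPM at day 8 (log2 fold change 1.60, standard error 0.34, edgeR adjusted p = 0.000265). In the ileum Rrm2 went from 7.72, 11.4 and 11.9 to 27.8, 24.1 and 19.0 CPM (log2 fold change 1.19, standard error 0.35, edgeR adjusted p = 0.0127), a call lost without ileum day 0 number 1 or day 8 number 1 (adjusted p up to 0.0779 over the alternatives). Uhrf1, which keeps DNA methylation through replication, rose from 30.7, 20.5 and 24.6 to 181, 165 and 155 CPM in the duodenum, and the ileum samples rose from 26.8, 18.4 and 16.2 to 75.4, 79.0 and 62.0 CPM (log2 fold changes 2.72 and 1.82). Rrm1, the partner of Rrm2 in the same enzyme, had log2 fold changes of 2.58 and 1.60, and Tk1, Prim1 and Pole had 2.46, 2.62 and 2.53 in the duodenum.

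The 3 G1 to S regulators rose in both regions, with median log2 fold changes of 2.19 (duodenum) and 1.15 (ileum). Ccne1, a cyclin that drives entry into S phase, had duodenum values of 2.88, 2.73 and 2.46 CPM at day 0 and 15.8, 14.3 and 12.9 CPM at day 8 (log2 fold change 2.41, standard error 0.32, edgeR adjusted p = 1.67e-07). Ileum samples held 3.25, 3.59 and 2.21 at day 0 and 6.93, 7.12 and 5.89 CPM at day 8 (log2 fold change 1.15, standard error 0.32, edgeR adjusted p = 0.00872), and the call was lost without ileum day 0 number 3 (adjusted p 0.0693). Ccne2, its paralog, read 8.68, 8.97 and 8.00 CPM at day 0 and 38.9, 44.2 and 34.1 CPM at day 8 in the duodenum and 7.72, 10.8 and 5.89 CPM at day 0 and 24.5, 21.6 and 20.2 CPM at day 8 in the ileum (log2 fold changes 2.19 and 1.45). E2f1, the transcription factor of this switch, read 3.71, 2.78 and 3.499 CPM at day 0 and 13.3, 14.6 and 12.6 CPM at day 8 in the duodenum (log2 fold change 2.01, standard error 0.25, edgeR adjusted p = 2.95e-08). In the ileum E2f1 read 5.47, 3.05 and 3.61 CPM at day 0 and 6.71, 8.89 and 7.61 CPM at day 8 (log2 fold change 0.94, standard error 0.24, edgeR adjusted p = 0.00479). None of the 3 passed the regional test at day 0, and all 3 were lower in the ileum at day 8.

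Of the 9 cyclins, kinases and regulators that carry a cell from S phase into mitosis, 9 rose in the duodenum, and 8 did so in the ileum (median log2 fold changes 2.20 and 1.23). Ccnb1, the cyclin that activates Cdk1 at mitosis, had duodenum values of 21.7, 21.6 and 23.7 CPM at day 0 and 102, 103 and 95.1 CPM at day 8 (log2 fold change 2.16, standard error 0.29, edgeR adjusted p = 1.94e-07). Ileum samples held 9.79, 21.6 and 16.1 at day 0 and 48.9, 41.4 and 32.3 CPM at day 8 (log2 fold change 1.37, standard error 0.29, edgeR adjusted p = 0.000647). Cdk1 itself followed, with 15.2, 15.8 and 23.5 CPM at day 0 and 84.9, 91.0 and 79.5 CPM at day 8 in the duodenum (log2 fold change 2.23, standard error 0.31, edgeR adjusted p = 2.7e-07). The ileum samples were at 8.94, 15.7 and 12.6 CPM at day 0 and 43.0, 31.8 and 25.2 CPM at day 8 (log2 fold change 1.43, standard error 0.30, edgeR adjusted p = 0.000696). Cdc20, which starts the exit from mitosis, rose from 13.002, 11.5 and 13.4 to 57.2, 51.4 and 52.8 CPM in the duodenum, and the ileum samples rose from 9.20, 10.4 and 9.60 to 21.4, 18.8 and 19.1 CPM (log2 fold changes 2.09 and 1.02). The ileum call for Cdc20 was lost without ileum day 8 number 1 (adjusted p up to 0.0774 over the alternatives). Foxm1, a transcription factor of G2/M genes, rose from 13.4, 12.4 and 11.5 to 45.3, 46.3 and 42.6 CPM in the duodenum (log2 fold change 1.85, standard error 0.22, edgeR adjusted p = 2.53e-08). In the ileum Foxm1 went from 12.2, 12.4 and 11.7 to 15.2, 23.1 and 21.3 CPM (log2 fold change 0.72, standard error 0.22, edgeR adjusted p = 0.0182), a small rise whose call was lost without ileum day 0 number 1 or 3 or day 8 number 2 or 3 (adjusted p up to 0.0923 over the alternatives). Plk1, a mitotic kinase, had a log2 fold change of 1.96 in the duodenum and 0.68 in the ileum, where the edgeR adjusted p was 0.0645.

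All 8 genes of the centromere, kinetochore and spindle checkpoint rose in both regions (median log2 fold changes 2.15 and 1.296). Bub1, a checkpoint kinase, had duodenum values of 7.43, 8.24 and 10.8 CPM at day 0 and 53.1, 50.6 and 49.8 CPM at day 8 (log2 fold change 2.53, standard error 0.30, edgeR adjusted p = 1.83e-08). The ileum samples read 3.92, 8.02 and 5.77 at day 0 and 25.7, 23.5 and 20.1 CPM at day 8 (log2 fold change 1.97, standard error 0.30, edgeR adjusted p = 8.36e-06). Ttk, the kinase that starts the checkpoint, had log2 fold changes of 2.62 and 2.05, so Bub1 and Ttk were, after Mcm3, the steepest members of the ileum. Cenpe and Cenpf, large proteins of the outer kinetochore, were at 1.59 and 1.84 in the duodenum and 1.14 and 1.52 in the ileum. Cenpa, the histone that marks centromeres, read 15.8, 14.8 and 18.9 CPM at day 0 and 75.2, 70.7 and 71.6 CPM at day 8 in the duodenum (log2 fold change 2.13, standard error 0.21, edgeR adjusted p = 5.33e-10). In the ileum Cenpa read 13.6, 18.0 and 17.0 CPM at day 0 and 36.8, 32.8 and 31.0 CPM at day 8 (log2 fold change 1.05, standard error 0.21, edgeR adjusted p = 0.000319).

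All 6 spindle and cytokinesis genes rose in both regions (median log2 fold changes 2.08 and 1.26). Kif20a, a kinesin of cell division, read 12.2, 11.9 and 12.8 CPM at day 0 and 65.4, 62.7 and 61.5 CPM at day 8 in the duodenum (log2 fold change 2.36, standard error 0.28, edgeR adjusted p = 1.45e-08). In the ileum the values were 7.21, 12.8 and 9.90 at day 0 and 27.7, 27.8 and 21.8 CPM at day 8 (log2 fold change 1.37, standard error 0.27, edgeR adjusted p = 0.000331). Mki67, which coats mitotic chromosomes and is the usual marker of dividing cells, had duodenum values of 138, 127 and 162 CPM at day 0 and 779, 739 and 718 CPM at day 8 (log2 fold change 2.39, standard error 0.30, edgeR adjusted p = 6.35e-08). In the ileum Mki67 was at 67.2, 120.0 and 113 CPM at day 0 and 273, 333 and 279 CPM at day 8 (log2 fold change 1.56, standard error 0.30, edgeR adjusted p = 0.000192). Top2a, which untangles sister chromosomes, rose from 83.3, 76.5 and 95.3 to 606, 622 and 571 CPM in the duodenum (log2 fold change 2.82, standard error 0.26, edgeR adjusted p = 1.34e-10). In the ileum Top2a rose from 45.5, 68.5 and 71.9 to 241, 262 and 214 CPM (log2 fold change 1.95, standard error 0.25, edgeR adjusted p = 4.87e-07). Both markers were higher in each day 8 sample than in any day 0 sample, and the duodenum ended above the ileum.

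**Figure D2:**
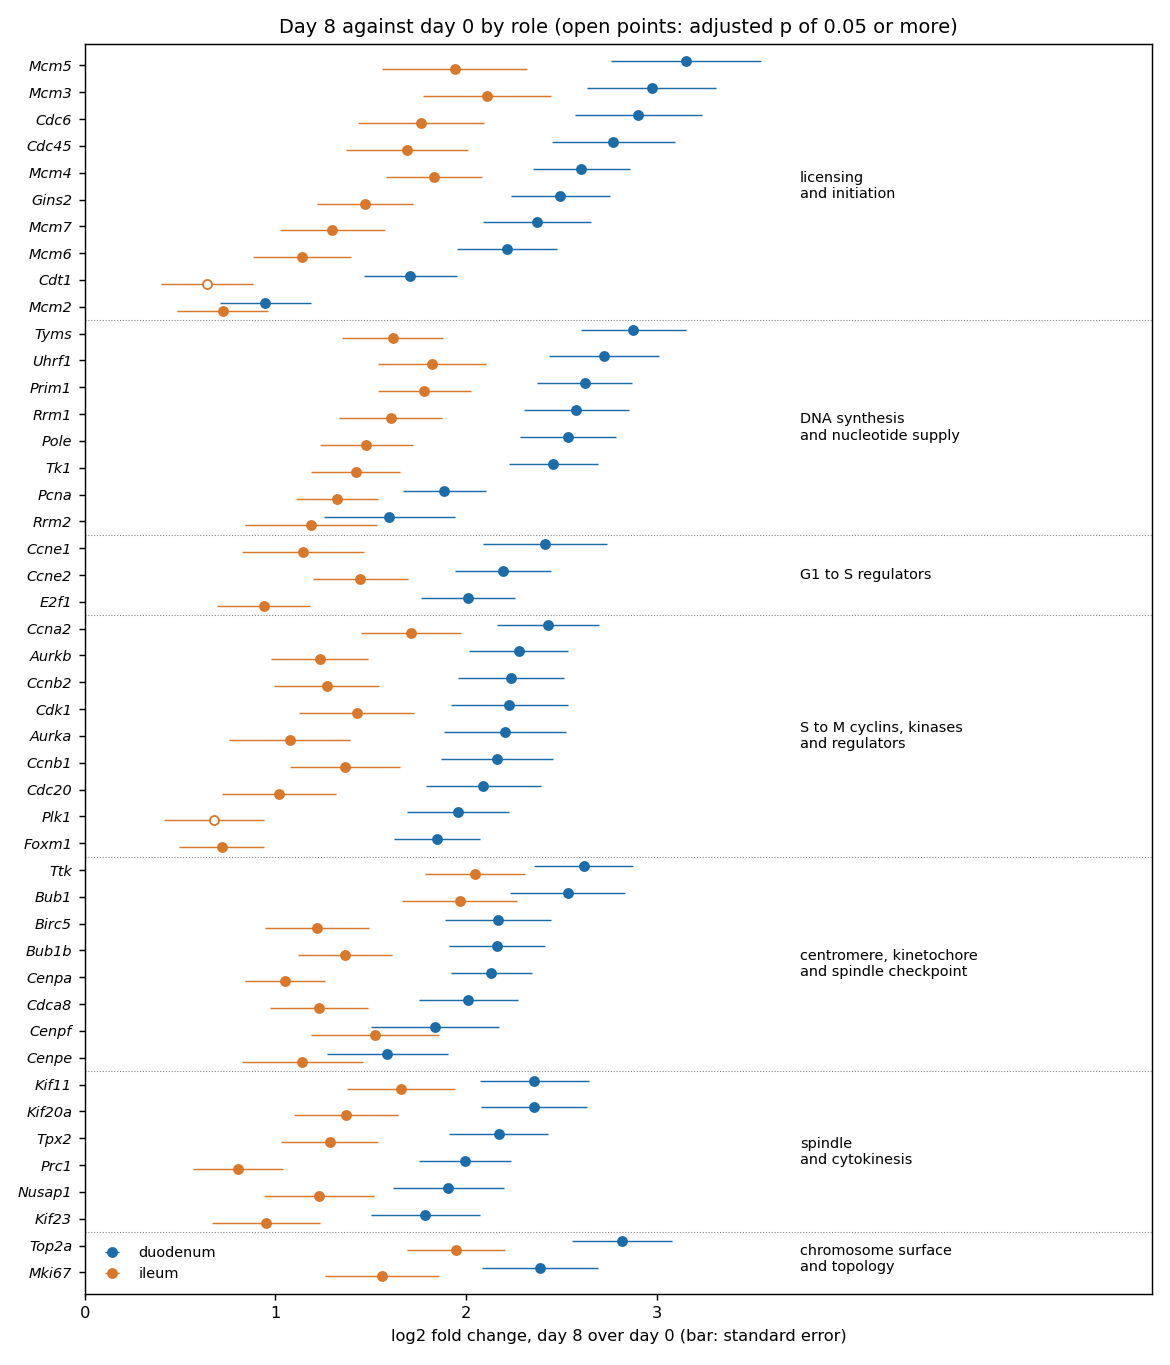
Points are the log2 fold change of each member from day 0 to day 8 with its standard error, in the duodenum (blue) and the ileum (orange), grouped by role. Open points, which are Cdt1 and Plk1 in the ileum, had an adjusted p of 0.05 or more. The duodenum value exceeds the ileum value for each of the 46 members, and that difference was not tested on its own.

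The first steps within these 8 days are described with no test, and from day 0 to day 2 the G1/S genes had the larger median ratios. From day 0 to day 2 in the duodenum the ratio of group means had a median of 2.26 over the G1/S genes and 1.59 over the G2/M genes, with Mcm5 highest at 3.14 and Mcm2 lowest at 0.951. Every day 2 sample lay above every day 0 sample for 42 of 46 members, against 18.4% of all genes, and the exceptions were Mcm2, Rrm2, Kif23 and Nusap1. In the ileum the median ratios were 1.77 and 1.43, and 29 of 46 members did not overlap, against 16% of all genes. The mean log2 CPM of the G1/S genes minus that of the G2/M genes went from -0.59 ± 0.16 at day 0 to -0.20 ± 0.07 at day 2 in the duodenum (SD, n = 3 each). It went from -0.47 ± 0.57 to -0.19 ± 0.11 in the ileum, where the day 0 samples ran from -0.86 to 0.18 and so covered the day 2 range. From day 2 to day 4 in the duodenum, every day 4 sample lay above every day 2 sample for 40 of 46 members, against 18.4% of all genes. In the ileum no member kept day 4 and day 2 apart, against 5.72% of all genes. Over this step the median ratios of the G1/S and G2/M genes were close, 2.366 and 2.275 in the duodenum and 1.497 and 1.481 in the ileum.

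The day 4 samples differed widely within their groups. Mki67 read 452, 827 and 234 CPM and Mcm5 55.2, 104 and 208 CPM in duodenum samples 1, 2 and 3, so number 3 was lowest for one and highest for the other. In the ileum Mki67 read 168, 180.1 and 308 CPM and Mcm5 19.7, 76.6 and 39.4 CPM, with number 2 highest for Mcm5 and not for Mki67. Duodenum number 3 and ileum number 2 are the day 4 libraries low in long transcripts, and the longest transcript is 10061 bases for Mki67 and 3381 bases for Mcm5. The part of transcript length in these values was not tested.

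**Figure D3:**
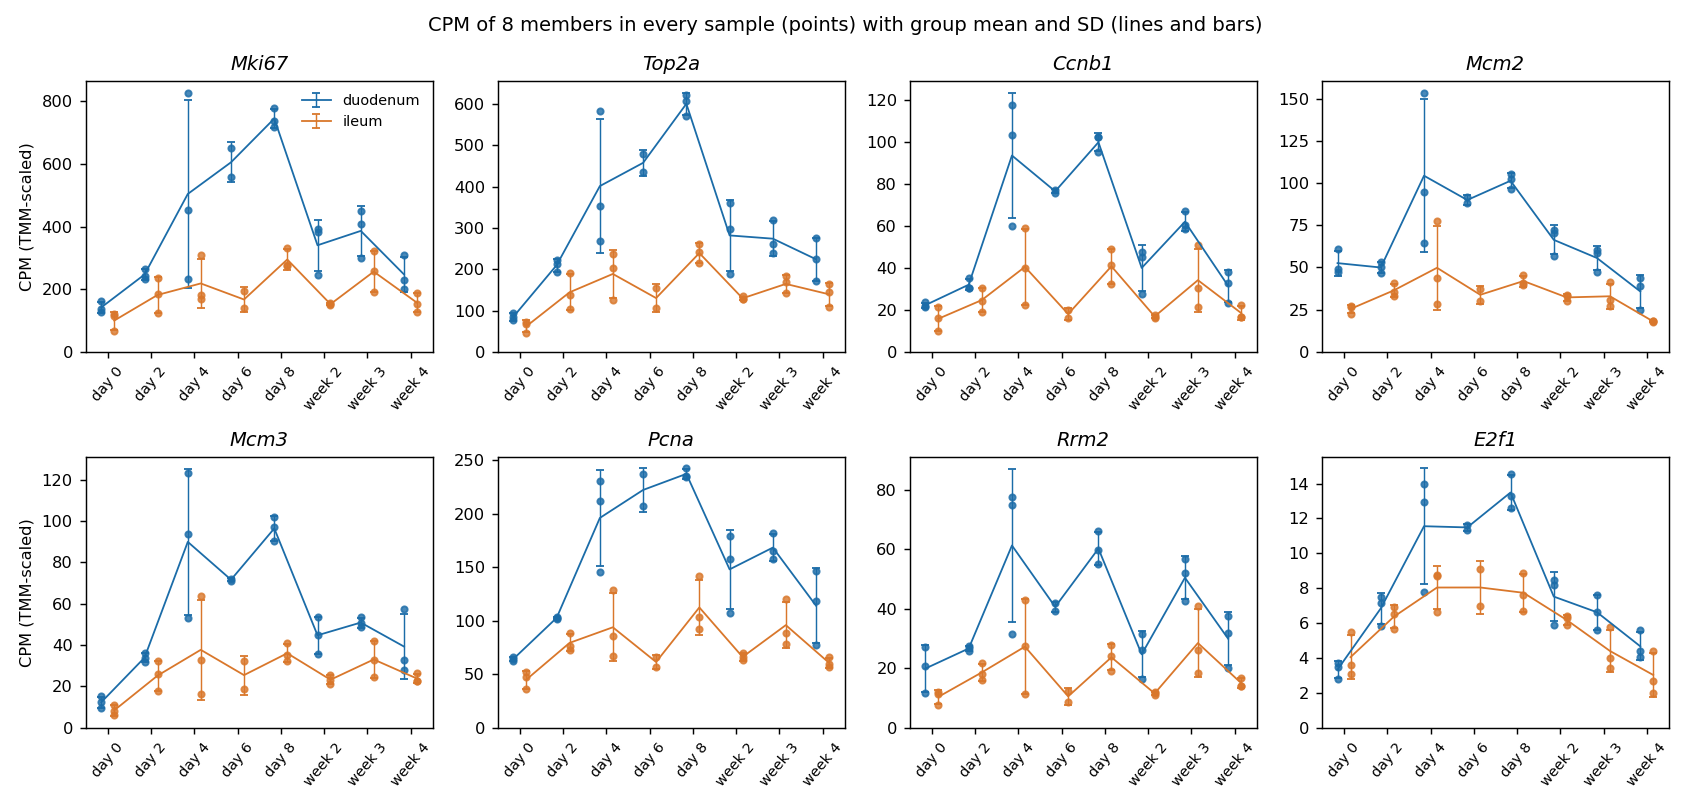
CPM of 8 members against age, with a point for each sample, lines through group means and bars of 1 SD, in the duodenum (blue) and the ileum (orange). Ages are evenly spaced. Most of the 8 spread widest at day 4, and Mcm2 starts high and has its lowest means at week 4.

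After day 8 nearly all members fell in the duodenum, and 23 of 46 were called as falling in the ileum, a count that varied widely with the settings. From day 8 to week 2, 44 of 46 fell in the duodenum, where 8.93% of all tested genes did, with a median log2 fold change of -1.13. The steepest were Cdk1 (log2 fold change -1.38, standard error 0.30, edgeR adjusted p = 0.00227), Tyms and Ccne1 (log2 fold changes -1.36 and -1.34). Cdk1 was at 84.9, 91.0 and 79.5 CPM at day 8 and 25.3, 39.9 and 33.1 CPM at week 2. The flattest were Mcm2 (log2 fold change -0.61, edgeR adjusted p = 0.0743), Pcna and Cdt1 (-0.68 and -0.69), and Mcm6 also did not pass the test. Over the same step 4 of the 5 endothelial markers rose in the duodenum, and none of the 5 stem cell markers passed the test in either region. Without duodenum week 2 number 1, the lowest of that group for all 46 members, 17 members were called. The calls of Pcna and Cdt1 were lost without any of 4 and of all 6 samples in turn. In the ileum 23 of 46 fell, against 2.47% of all tested genes, 19 of them G2/M genes and 4 G1/S genes (median log2 fold changes -1.01 and -0.62). Ttk, Ccnb1 and Ccna2 fell most (log2 fold changes -1.35, -1.27 and -1.23), and none of the 10 licensing genes passed the test. Ccnb1 was at 48.9, 41.4 and 32.3 CPM at day 8 and 16.8, 16.4 and 17.6 CPM at week 2, while Gins2, Cdt1 and E2f1 were nearest to 0 (log2 fold changes -0.28, -0.29 and -0.33) and did not pass the test. All 8 centromere, kinetochore and checkpoint genes fell. The ileum count was 1, 14, 7, 10 and 6 without day 8 number 1 or 2 or week 2 number 1, 2 or 3, and the calls of Ccnb1 and Ccna2 were lost without day 8 number 1. It was 43 with only the groups compared in the model and 0 with all 48 samples.

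At week 3, the age at which the labels put the change to chow, 15 of 46 members rose from week 2 in the ileum, against 12.9% of all tested genes: 13 of the 25 G2/M genes and, among the G1/S genes, Rrm2 and Tk1. Rrm2 went from 11.03, 11.6 and 11.9 to 40.8, 26.3 and 18.3 CPM (log2 fold change 1.31, standard error 0.35, edgeR adjusted p = 0.00369), and Birc5, a member of the chromosomal passenger complex, from 13.9, 13.5 and 13.1 to 35.2, 30.4 and 21.2 CPM (log2 fold change 1.10, standard error 0.27, edgeR adjusted p = 0.00184). Aurka, a kinase of spindle poles, rose as well (log2 fold change 1.08, standard error 0.32, edgeR adjusted p = 0.00843). E2f1, Mcm6 and Ccne2 had the lowest changes (log2 fold changes -0.49, -0.16 and -0.10), and none of these passed the test. G1/S minus G2/M genes stood at -0.01 ± 0.06 at week 2 and -0.43 ± 0.06 at week 3 (mean log2 CPM, SD, n = 3 each), with no overlap between the groups. Of the stem cell markers 3 of 5 fell over this step in the ileum and 4 of 5 in the duodenum. In the ileum 3 of 7 epithelial markers rose, Krt8, Krt19 and Vil1 (log2 fold changes 2.01, 2.39 and 1.49), and the summed epithelial level went from 4308 to 4710 CPM at week 2 up to 8248 to 10729 CPM at week 3. The leukocyte, neural and pancreatic lists each had 1 marker that fell, Csf1r, Ret and Ctrb1 (log2 fold changes -3.08, -3.17 and -3.68). The part of these cells in the members' step was not tested. The count was 4 without ileum week 3 number 1, the highest of that group for most members, and the calls of Rrm2 and Aurka were lost without it (adjusted p 0.0531 and 0.0504).

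In the duodenum 2 of 46 rose from week 2 to week 3, against 7.7% of all tested genes, so the share of members was below that of all genes. They were Rrm2, from 16.2, 31.5 and 26.3 to 56.6, 42.5 and 52.0 CPM (log2 fold change 1.03, standard error 0.34, edgeR adjusted p = 0.0283), and Cenpa, from 25.3, 34.9 and 31.9 to 48.3, 43.0 and 49.9 CPM (log2 fold change 0.62, standard error 0.21, edgeR adjusted p = 0.0304). Birc5 and Ccnb1 came next (log2 fold changes 0.67 and 0.63) and did not pass the test, and the lowest were Cdc6, Mcm6 and Mcm2 (log2 fold changes -0.38, -0.33 and -0.26). The count was 0 without week 2 number 1 or 3 or week 3 number 1 or 3. The difference between the regions in this step was called for 0 of 46 members by edgeR and 0 by DESeq2, with 0 at an unadjusted p under 0.05, against 1.38% of all tested genes, so the step was not shown to differ between regions.

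From week 3 to week 4 few members passed the test, and those that did fell. In the duodenum 7 fell, against 4.96% of all tested genes, all of them G2/M genes: Ccnb1, Kif11, Nusap1, Aurkb, Prc1, Kif20a and Ttk. Ccnb1 was at 67.2, 60.5 and 58.6 CPM in week 3 and 38.1, 23.4 and 32.9 CPM in week 4 (log2 fold change -0.98, standard error 0.28, edgeR adjusted p = 0.0163). Kif11 and Nusap1 were next (log2 fold changes -0.93 and -0.90), and Cdc6, Gins2 and Cenpa were at the other end (0.21, -0.21 and -0.25) without passing the test. In the ileum 8 fell, against 7.81% of all tested genes: Aurkb, Kif11, Ccnb1, Mcm2, Kif20a, Tpx2, Pcna and Foxm1. Aurkb, a kinase of the chromosomal passenger complex, went from 28.8, 20.7 and 18.6 to 11.2, 12.1 and 9.15 CPM (log2 fold change -1.07, standard error 0.26, edgeR adjusted p = 0.00269), and Kif11 fell as well (log2 fold change -0.96). Rrm2 had a log2 fold change of -0.92 and did not pass the test (edgeR adjusted p = 0.0633). Ccne2, Cenpe and Gins2 had log2 fold changes of 0.42, 0.03 and 0.01. These counts rest on single libraries. The duodenum count was 0, 4 and 1 without week 3 number 1, 2 or 3 and 0 and 1 without week 4 number 2 or 3, and Ccnb1 lost its call without week 3 number 1 or week 4 number 2. The ileum count was 1, 5 and 18 without week 3 number 1, 2 or 3, and 5 and 2 without week 4 number 1 or 3.

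Set against birth, the week 4 gut kept part of the rise. In the duodenum 34 of 46 members were higher at week 4 than at day 0, against 20.4% of all tested genes, with a median fold change of 1.77. Every week 4 sample lay above every day 0 sample for 36 members, against 25.9% of all genes. The G1/S genes had a median log2 fold change of 1.12 with 18 of 21 higher, and the G2/M genes 0.73 with 16 of 25 higher. Cdc6 was at 3.80, 2.55 and 2.57 CPM at day 0 and 12.05, 8.48 and 10.3 CPM at week 4 (log2 fold change 1.78, standard error 0.32, edgeR adjusted p = 2.34e-05), and Mcm5 and Mcm3 followed (log2 fold changes 1.72 and 1.68). Mcm2, Cenpe and Cenpf were lowest (log2 fold changes -0.55, -0.04 and 0.02) and did not pass the test. Mcm2 was at 61.1, 47.4 and 49.3 CPM at day 0 and 43.6, 24.7 and 39.1 CPM at week 4, groups that did not overlap, and its adjusted p ran from 0.00222 to 0.357 over the alternatives, with a call among others without duodenum week 4 number 1. The stem cell markers were also higher at week 4 than at day 0, 5 of 5 in each region, and 6 of 7 epithelial markers were higher in each. The remaining epithelial marker, Krt18, was lower in the ileum (log2 fold change -0.86) and did not pass the test in the duodenum (-0.25). The endothelial markers were lower, 5 of 5 in the duodenum and 4 of 5 in the ileum, and the part of these cells was not tested. Of the leukocyte markers 5 of 6 were higher in each region, and the remaining one, Csf1r, was lower in both (log2 fold changes -3.86 and -3.56). The mean sum of these 6 markers was lower in the duodenum (102 CPM at birth, 71.0 at week 4). It was higher in the ileum (82.9 and 248). Among red blood cell markers 4 of 5 were lower in the duodenum. Without the day 0 samples numbered 2 and 3, which hold reads of both sexes, 17 members were called. With a term for Ddx3y reads 20 were called, 19 higher and Mcm2 lower (edgeR adjusted p 0.0186).

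In the ileum 19 of 46 members were higher at week 4 than at day 0, against 21.5% of all tested genes, with a median fold change of 1.54, and the week 4 samples lay above the day 0 samples without overlap for 25 members, against 23.6% of all genes. Mcm3 was at 11.01, 8.18 and 5.94 CPM at day 0 and 22.4, 26.3 and 22.6 CPM at week 4 (log2 fold change 1.51, standard error 0.33, edgeR adjusted p = 0.000312), and Cdc6 and Top2a followed (log2 fold changes 1.39 and 1.17). Mcm2, E2f1 and Mcm6 had negative log2 fold changes of -0.50, -0.39 and -0.13 and did not pass the test. Mcm2 was at 27.3, 26.5 and 22.6 CPM at day 0 and 18.4, 17.6 and 18.1 CPM at week 4, again with no overlap. Without ileum week 4 number 2 the count was 11, and E2f1 was called lower (adjusted p 0.0204).

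The ileum stood below the duodenum for the whole list. Averaged over the 8 ages, 46 of 46 members were lower in the ileum, against 30.2% of all tested genes, with a median log2 fold change of -0.94, while the median of all tested genes was 0.08. Tyms, Rrm2 and Ccnb2 were lowest (log2 fold change -1.13, standard error 0.10, edgeR adjusted p = 1.26e-12 for Tyms, and log2 fold changes -1.11 and -1.10 for the others). Pole, the catalytic subunit of DNA polymerase epsilon, E2f1 and Ccne2 were nearest to equal (log2 fold changes -0.27, -0.39 and -0.54). The 5 crypt stem cell markers were also lower in the ileum, 5 of 5, with a median log2 fold change of -1.08. The 5 genes of each of the fibroblast, smooth muscle, endothelial and neural lists were all higher there, with medians of 2.06, 1.83, 0.96 and 1.36, as were 4 of 6 leukocyte markers. The 5 red blood cell markers were all lower, with a median of -1.08, and so were 4 of 5 pancreatic markers. Of the 7 epithelial markers 1 was higher and 2 were lower. The part of cell makeup in the regional difference was not tested.

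By age, the count of members called lower was 1 at day 0 and day 2 and from 18 to 46 at each later age. With only the samples of 1 age in the model the order of the early ages was the reverse, with 24 called at day 2 and 0 at day 4. At day 0, 1 of 46 members was lower in the ileum, against 3.14% of all tested genes, and this was Mcm2, at 61.1, 47.4 and 49.3 CPM in the duodenum and 27.3, 26.5 and 22.6 CPM in the ileum (log2 fold change -1.05, standard error 0.24, edgeR adjusted p = 0.00524). Rrm2 and Kif11 were next (log2 fold changes -0.94 and -0.62) and Pole, E2f1 and Ccne1 were at the other end (0.34, 0.27 and 0.16), none of them past the test. The day 0 count was 2 without duodenum number 1 and 0 without duodenum numbers 2 and 3. With the same-numbered samples of an age as a replicate block the count was 2 at day 0 and 4 at day 2, and with a term for Ddx3y reads it was 2 and 3. At day 2, 1 of 46 was lower, against 3.97%: Cenpa (log2 fold change -0.64, standard error 0.21, edgeR adjusted p = 0.048), whose call was lost without any single sample of that age except ileum number 3. Tyms, Tpx2 and Cdc6 had lower log2 fold changes of -0.79, -0.73 and -0.72 without passing the test. At unadjusted p under 0.05 the counts were 6 and 12. At day 4, 45 of 46 were lower against 15%, all but E2f1, and Mcm5, Cdc6 and Rrm1 differed most (log2 fold changes -1.44, -1.36 and -1.36). Without duodenum number 3 and ileum number 2 the count was 45. At day 6, with 2 samples per region, 45 of 46 were lower against 17.5%, with the largest median difference of any age (log2 fold change -1.79). Ccnb2 read 47.1 and 54.0 CPM in the duodenum and 11.9 and 9.61 CPM in the ileum (log2 fold change -2.23, standard error 0.34, edgeR adjusted p = 7.71e-06), with Ccna2 and Cdc45 next (log2 fold changes -2.18 and -2.11). E2f1, Pole and Foxm1 differed least at both ages (log2 fold changes -0.52, -0.73 and -0.76 at day 4, -0.52, -0.89 and -0.93 at day 6).

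At day 8, 46 of 46 members were lower in the ileum, against 22.6% of all tested genes, with a median log2 fold change of -1.22. Tyms read 154, 162 and 137 CPM in the duodenum and 58.7, 52.2 and 40.4 CPM in the ileum (log2 fold change -1.58, standard error 0.26, edgeR adjusted p = 2.4e-05), and Mcm5 and Plk1 were next (log2 fold changes -1.52 and -1.47). At week 2, 39 of 46 were lower against 11.8%. The number was 18 against 6.9% for week 3 and 24 against 13.9% for week 4. The median log2 fold changes of the members were -1.004, -0.70 and -0.69. At week 2 Tyms, Ccna2 and Nusap1 differed most (log2 fold changes -1.36, -1.31 and -1.305). At week 3 these were Nusap1, Ccnb2 and Prim1 (-1.09, -0.97 and -0.96), and at week 4 Mcm6, Rrm2 and Mcm2 (-1.11, -0.99 and -0.99). Pole was nearest to equal at week 2 (log2 fold change -0.02), as in week 3, without passing the test, and E2f1 and Ccne2 were next at week 2 (-0.28 and -0.43) and Foxm1 and Kif23 at week 3 (-0.23 and -0.27). At week 4 Ccne2, Cenpf and Cenpe had positive log2 fold changes of 0.38, 0.34 and 0.11 that did not pass it. The week 2 count was 25 without duodenum number 2. The week 3 count was 4, 11 and 6 without duodenum number 1, 2 or 3 and 5 and 0 without ileum number 2 or 3, and the week 4 count was 6 and 12 without duodenum number 1 or 3 and 8 without ileum number 3. Without the week 4 samples apart by Pdx1 or Fabp6 it was 33 (duodenum number 2) and 16 (ileum number 1).

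**Figure D4:**
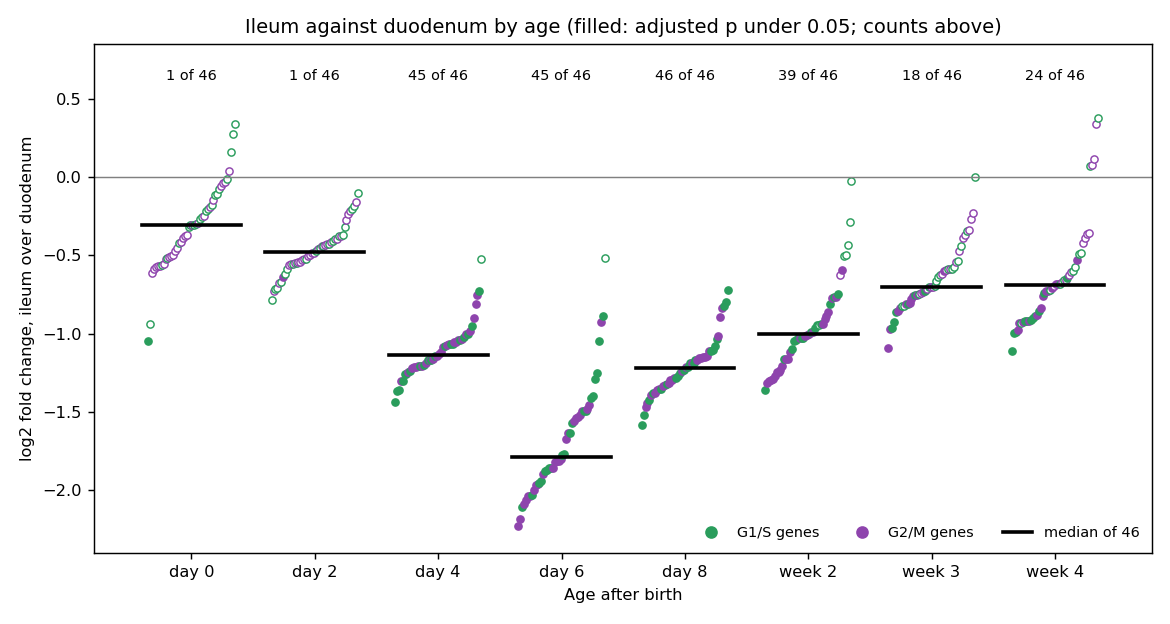
Each point is the log2 fold change of 1 member, ileum over duodenum, at the age on the horizontal axis; filled points had an adjusted p under 0.05, and the count of these stands above. Black bars are medians of the 46 members. The median difference is smallest at day 0 and largest at day 6.

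The interaction of region and age, which tests whether the course over age differs between regions, was called for 14 of 46 members. This share was not far above the 22.4% called over all tested genes. Ccne2 had the smallest adjusted p (edgeR, 0.0107): its ileum mean was 8.14 ± 2.49 CPM at day 0, close to 8.55 ± 0.498 in the duodenum, then 22.1 ± 2.17 against 39.1 ± 5.05 CPM at day 8 and 17.9 ± 4.63 against 13.8 ± 0.856 CPM at week 4 (SD, n = 3 each). Prc1, Mcm6 and Cenpa came next (edgeR adjusted p 0.0150, 0.0185 and 0.0185), and Mcm2 and Rrm2, the members with the lowest regional fold changes at day 0, had 0.362 and 0.441. The count was 9, 30, 7, 6, 22 and 9 without duodenum day 0 number 2, day 4 number 1, day 6 number 1, day 6 number 2, week 2 number 1 or week 4 number 3. It was 9, 8, 23, 33, 8, 1, 22 and 9 without ileum day 0 number 2, day 2 number 3, day 4 number 1, day 4 number 2, day 6 number 1, day 6 number 2, week 3 number 3 or week 4 number 2, and 38 without both day 4 libraries low in long transcripts. With the same-numbered samples of an age as a replicate block it was 26. It was 0 with all 48 samples and 42 without the day 4 samples.

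Other genes of the pathway came from 6 lists of 69 symbols, 68 of which matched. From day 0 to day 8 the share of all tested genes that rose was 22% (duodenum) and 8.56% (ileum). The other replication factors rose in 18 of 20 cases in the duodenum over this step and 16 of 20 in the ileum, and the kinetochore and condensation genes in 14 and 13 of 15 cases. The D-type cyclins and their kinases had 5 of 6 higher and 1 lower in the duodenum and 4 and 1 in the ileum, and the pocket proteins and E2F factors 7 and 1 of 11 and 5 and 1. The CDK inhibitors had 2 of 6 higher and 1 lower in the duodenum, near the share of all genes, and 3 and 1 in the ileum. The checkpoint genes and phosphatases had 8 of 9 higher and 1 lower in the duodenum, and 5 higher and 1 lower in the ileum. At week 4, 20.4% (duodenum) and 21.5% (ileum) of all tested genes were above their day 0 level. Replication factors were higher in 12 of 20 cases in the duodenum, led by Pold1 and Gins1 (log2 fold changes 1.69 and 1.68), with Orc3 lower (-0.66) and DNA ligase Lig1 the least of those that rose (0.77). In the ileum 8 were higher, led by Gins1 and Cdc7 (log2 fold changes 1.61 and 1.60), with Orc5 lower (-0.87) and Gmnn, an inhibitor of Cdt1, the least of those that rose (0.54). Of the 15 kinetochore genes 7 were higher in the duodenum, led by Spc24 and Cdca5 (log2 fold changes 1.04 and 0.96), and 4 in the ileum, led by Spc24 and Ncaph (log2 fold changes 0.95 and 0.83), the latter near the share of all genes. The least of these were Bub3 and Ncaph in the duodenum (0.52 and 0.68) and Smc4 and Ncapg in the ileum (0.67 and 0.73). Cdc25a, a phosphatase that activates the kinases of S phase entry, was lower at week 4 in both regions (log2 fold changes -0.36 and -0.77). In its list Cdc25c and Chek1 were highest in the duodenum (log2 fold changes 0.89 and 0.73), and Chek1 and Cdc25b in the ileum (log2 fold changes 1.24 and 0.86), with Wee1 the least of those that rose in the duodenum (0.58) and Fzr1 in the ileum (0.62).

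The CDK inhibitors did not move as one group. Cdkn1c, which encodes the inhibitor p57 and is known from fetal tissue, had duodenum values of 497, 559.8 and 870.3 CPM at day 0, 76.2, 65.2 and 76.5 CPM at day 8 and 8.47, 10.6 and 12.2 CPM at week 4 (log2 fold change -5.95, standard error 0.30, edgeR adjusted p = 2.1e-18). In the ileum it was at 669.6, 516 and 742, then 87.7, 110.2 and 134 and at last 5.24, 5.46 and 5.88 CPM (log2 fold change -6.86, standard error 0.32, edgeR adjusted p = 1.78e-19). It was the deepest fall among all listed genes of the cycle, with no overlap between any of these 3 ages. Cdkn1a, which encodes p21, went the other way and late: 39.0, 36.4 and 38.2 CPM at day 8, 141, 127 and 113 at week 3 and 130.1, 208 and 168 at week 4 in the duodenum (against day 0, log2 fold change 1.87, standard error 0.21, edgeR adjusted p = 2.93e-09). In the ileum Cdkn1a was at 239, 229 and 209 CPM at week 3 (1.80 on the log2 scale from day 0 to week 4). Cdkn2c was highest of the list in the duodenum (log2 fold change 2.65, and 2.06 in the ileum), and Cdkn2b in the ileum, where it rose from 10.3, 12.3 and 7.65 to 68.3, 58.1 and 66.6 CPM (log2 fold change 2.68, standard error 0.21, edgeR adjusted p = 4.06e-13). The least of the inhibitors that rose were Cdkn2b in the duodenum (0.80) and Cdkn1b, which encodes p27, in the ileum (0.89). Of the 6 inhibitors tested 4 were higher and 1 lower at week 4 in each region, and Cdkn2a did not pass the filter on low counts.

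Among the D-type cyclins, which act in the G1 phase, Ccnd3 fell and Ccnd1 rose. Ccnd3 had duodenum values of 66.7, 67.6 and 62.7 CPM at day 0 and 19.4, 15.7 and 18.1 CPM at week 4 (log2 fold change -1.89, standard error 0.19, edgeR adjusted p = 1.08e-10), and ileum values of 96.1, 82.5 and 84.0 CPM at day 0 and 17.1, 15.02 and 21.8 CPM at week 4 (-2.29 on the log2 scale). Ccnd1 was at 20.0, 17.4 and 27.1 CPM at day 0 and 80.6, 60.8 and 92.7 CPM at week 4 in the duodenum (log2 fold change 1.85, standard error 0.26, edgeR adjusted p = 3.53e-07) and had a log2 fold change of 1.97 in the ileum. Of their kinases, Cdk6 was higher at week 4 in the duodenum (log2 fold change 1.42, standard error 0.22, edgeR adjusted p = 2.31e-06), where it read 14.4, 17.4 and 23.1 CPM at day 0 and 51.9, 41.3 and 54.2 CPM at week 4, and had a log2 fold change of 0.19 in the ileum (edgeR adjusted p = 0.522). Cdk4 was lower in the ileum (log2 fold change -1.46, standard error 0.21, edgeR adjusted p = 3.45e-07), where it read 149, 123 and 111 CPM at day 0 and 47.0, 52.8 and 39.1 CPM at week 4, and had a log2 fold change of -0.24 in the duodenum (edgeR adjusted p = 0.367). The regional difference in these 2 changes was not tested. Cdk2, the kinase of the E cyclins, rose least (0.63 and 0.55). Of the 6 genes of this list 3 were higher and 1 lower at week 4 in the duodenum, and 2 were higher and 2 lower in the ileum. In the pocket protein and E2F list, 5 of 11 genes were higher and 2 lower at week 4 in the duodenum, and 6 were higher and 3 lower in the ileum. There E2f8, a repressor of the E2F program, was lower at week 4 (log2 fold changes -1.57 and -1.98), as was E2f5 in the duodenum and E2f6 in the ileum (-0.996 and -0.97). E2f2, an activator, was highest (log2 fold changes 1.296 and 1.45), followed by E2f7 in the duodenum and Rb1 in the ileum (0.84 and 1.17).

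**Figure D5:**
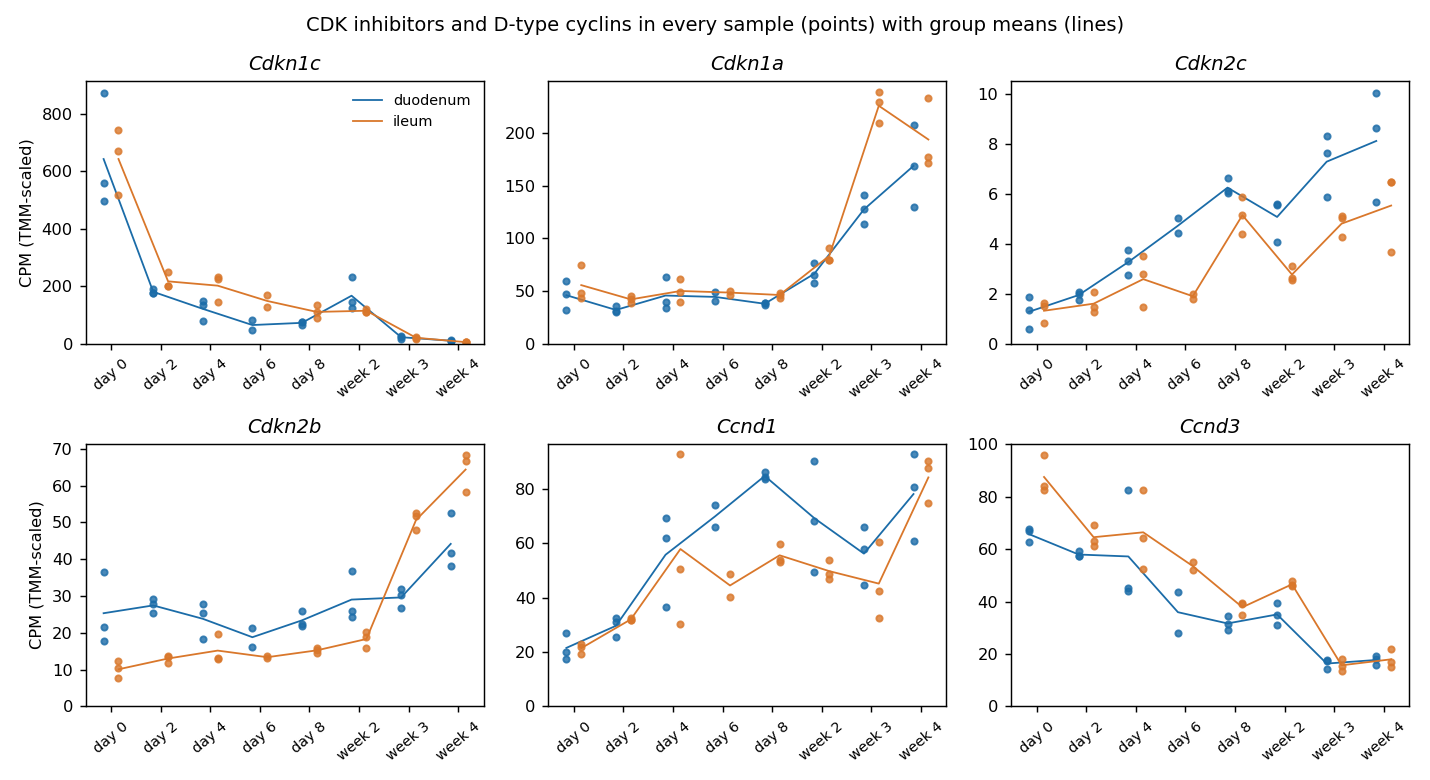
CPM of 4 CDK inhibitors and 2 D-type cyclins in every sample (points) with lines through the group means, in the duodenum (blue) and the ileum (orange), against evenly spaced ages. Cdkn1c and Ccnd3 fall from day 0, Cdkn1a rises from week 2, and Cdkn2b rises in the ileum at week 3.

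Between regions the lists of replication, kinetochore and checkpoint genes were mostly lower in the ileum. By list, the D-type cyclins and their kinases had 1 of 6 higher and 5 lower in the ileum, the inhibitors 2 and 3 of 6, and the pocket proteins and E2F factors 2 and 8 of 11, where 30.2% of all tested genes were lower. Averaged over ages, 18 of 20 replication factors were lower in the ileum, with Gins1 and Dut lowest (log2 fold changes -1.08 and -1.03) and Orc1 and Cdc7 nearest to equal (-0.30 and -0.30), and none was higher. Of the kinetochore genes 14 of 15 were lower, with Nuf2 and Mad2l1 lowest (log2 fold changes -1.08 and -1.05) and Pttg1 and Spc24 nearest to equal of those called (-0.30 and -0.51). Of the checkpoint genes 8 of 9 were lower, with Ube2c and Cdc25c lowest (log2 fold changes -1.03 and -0.88) and Fzr1 and Cdc25b nearest to equal (-0.25 and -0.56). The lists of G1 control were mixed: Cdk6 and Ccnd2 were lower in the ileum (log2 fold changes -0.77 and -0.63), Ccnd1 slightly so (-0.22) and Ccnd3 higher (0.25). Among the inhibitors Cdkn2c and Cdkn2b were lower (-0.53 and -0.44) and Cdkn1a and Cdkn2d higher (0.32 and 0.17). E2f8 and E2f7 were lower (-0.65 and -0.59), while E2f5 and Rb1 were higher (0.72 and 0.21).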

How the data were processed

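RNA was sequenced from 48 samples of duodenum and ileum. The authors deposited a table of estimated counts per gene, whole numbers summarised from transcript estimates with tximport, per the file headers and names. They also deposited normalized counts per region, a signal equal to the estimated counts divided by 1 factor per sample, which served here only to pair identifiers with gene symbols (51106 of 54532). STAR 2.6.1d, Salmon 0.14.2, DESeq2 1.30.1 and build mm10 are named in the submitters' processing notes. The annotation release is not given in the sources used here. Because reads were assigned to transcripts by estimation and no setting for strand is given, reads of near-identical or overlapping genes may be split between them.

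Library totals ran from 16824021 to 65042327 in the 46 samples used. CPM and fold changes came from edgeR 4.0.16 (R 4.3.3): TMM scaling, the filterByExpr filter (21986 genes kept), a robust quasi-likelihood fit of all 16 groups together, and Benjamini-Hochberg adjustment over all genes kept, with 0.05 as the threshold. The standard error of a log2 fold change was its absolute value over the root of F. No pair of samples of the same group held the same values, and samples of different groups were not compared in this way. On simulated data with 200 changed genes, the fit called 61% of 2-fold and 57% of 4-fold changes for day 8 against day 0 in the duodenum. These shares were 60% and 54% for week 4 against day 0 in the ileum, and 70% and 67% for the duodenum age effect. They were 93% and 95% for the averaged regional test and 11% and 34% for the interaction. False calls were 0% of calls for the interaction and 8.67% for the duodenum age effect. A gene that did not pass a test may therefore still have changed. The 2-fold and 4-fold changes were put on different genes, drawn at random from all genes kept. Changed genes that the filter dropped from the simulated counts were scored as not called. The shares therefore do not compare the 2 sizes of change. They also do not give the share that would be called among the members, all of which passed the filter. The members and gene lists were chosen with earlier results of these data known. Values per sample are given for 20 representatives set by role, and each comparison names the 3 highest and 3 lowest members by log2 fold change. In the week 4 and averaged regional comparisons, the 2 highest and 2 lowest called genes of each pathway list are named. Roles were set by textbook function. Alternatives were RLE size factors, no filter, a mean count of at least 10, DESeq2 1.42.0, only the groups compared, a block for the sample number (age and number for regional tests, number within a region for tests between ages), all 48 samples, no day 4 samples and each sample left out in turn.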

Additional observations from a re-analysis of the deposited data

Results flagged for a closer look

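For 14 members the course over age differed between the duodenum and the ileum by edgeR's interaction of region and age, which tests that difference itself. Among the licensing and DNA synthesis genes the adjusted p was 0.0478 for Cdc6, 0.0366 for Mcm4, 0.0185 for Mcm6, 0.0250 for Pcna, 0.0443 for Pole, 0.0370 for Tyms and 0.0223 for Tk1. It was 0.0107 for Ccne2, the only G1 to S regulator of the 3 to pass. Among the cyclins and kinases of S phase to mitosis it was 0.0215 for Ccna2, 0.0289 for Ccnb2 and 0.0242 for Plk1. It was 0.0185 for Cenpa, the centromere histone, and 0.0313 for Kif23 and 0.0150 for Prc1, both of the central spindle. The share of members, 14 of 46, was not far above the 22.4% of all tested genes. The count depends on single samples and on the settings, as given with the result.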

How the results depend on the processing

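The alternatives other than leaving out 1 sample at a time, with those chosen after seeing the data, gave 3036 values of single members in 7 comparisons. Of these, 2816 kept their side of the threshold, 132 lost a call, 88 gained one and 0 reversed a called direction. The age effect in both regions, day 8 against day 0 in both regions, the averaged regional difference and that at day 8 stayed within 1.5 times of their counts of called members under all alternatives. Leaving out 1 sample at a time gave 46 to 46 and 43 to 46 members for the age effect (duodenum, ileum), 46 to 46 and 37 to 43 for day 8 against day 0, 17 to 42 and 1 to 20 for week 2 against day 8, 0 to 2 and 4 to 20 for week 3 against week 2, 0 to 10 and 1 to 18 for week 4 against week 3, and 26 to 36 and 11 to 18 for week 4 against day 0. For ileum against duodenum it gave 46 to 46 averaged, and by age 1 to 2 (day 0), 0 to 1 (day 2), 33 to 45 (day 4), 41 to 44 (day 6), 44 to 46 (day 8), 25 to 42 (week 2), 0 to 25 (week 3) and 6 to 33 (week 4). It gave 1 to 33 for the interaction. Where a group was left with 1 sample, that sample was assumed to vary like the other groups.

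Other settings moved these counts. With no low-count filter, week 3 against week 2 in the duodenum gave 1, week 4 against week 3 gave 4 in each region, week 2 against day 8 in the ileum 14 and the interaction 6. With a mean count of at least 10, week 4 against week 3 gave 11 and 5 (duodenum, ileum), the region at day 2 gave 0 and the interaction 22. RLE size factors gave 2 at day 2. DESeq2 gave 3 at day 2 and 26 for the interaction. With only the groups compared in the model, week 3 against week 2 gave 6 and 29 (duodenum, ileum), week 4 against week 3 gave 16 and 3, week 2 against day 8 in the ileum 43, and the region 24 at day 2, 0 at day 4 and 14 at week 4. With all 48 samples, week 2 against day 8 gave 20 and 0, week 3 against week 2 gave 0 and 5, week 4 against week 3 gave 0 and 1, week 4 against day 0 in the ileum gave 9, the region gave 0 on days 0, 2 and 6 and in week 3, 16 in week 2 and 3 in week 4, and the interaction gave 0. Without the day 4 samples, week 3 against week 2 in the duodenum gave 10, week 4 against week 3 gave 27 and 15, the region gave 2 at day 0, 6 at day 2 and 40 at week 3, and the interaction gave 42. Chosen after seeing the data, leaving out duodenum day 0 numbers 2 and 3 gave 17 for week 4 against day 0, 0 for the region at day 0 and 3 for the interaction, and leaving out the day 4 libraries low in long transcripts gave 38 for the interaction. Also chosen after seeing the data, a term for Ddx3y reads gave 20 for week 4 against day 0 in the duodenum, 4 for week 3 against week 2 there, 14 and 17 for week 4 against week 3 (duodenum, ileum), and 2 and 3 for the region at day 0 and day 2. The cause of these shifts was not tested.

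With a replicate block (age and number for the regional tests, number within a region for those between ages) the region gave 2 at day 0, 4 at day 2 and 26 for the interaction, and no other count moved by over 1.5 times. Deviations from the group mean were compared between samples of the same age and number in the 2 regions. Their mean correlation was 0.155 over 23 pairs, 16 of them over 0.1. All 3 pairs were over 0.1 at 4 of the 7 ages that have 3 pairs (day 0, day 2, week 2 and week 3). The 44 pairs of other numbers had a mean of -0.079. Deviations within a group sum to 0, so this value is not an independent contrast. At day 6, with 2 samples per region, both pairs necessarily hold the same value (0.187). Same-numbered samples were alike in holding Ddx3y reads in 21 of 23 pairs. The labels do not say what a number stands for, and not every pair was over 0.1, so the tests without the block were kept as the main ones. A fit of only the groups compared was not run for the averaged and interaction tests, which use all groups. The regional comparison at day 4 has no value without the day 4 samples.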
